A study of Mus musculus with 6 samples.

Results

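Transcripts of 10 genes of lipid droplets and fatty acid handling (Plin2, Cd36, Lpl, Fabp4, Fabp5, Pparg, Dgat1, Dgat2, Scd1 and Pnpla2) were followed in mouse hepatic stellate cells on 6 Affymetrix arrays. The genes were chosen by name, with earlier results of these data known. Each was represented by a probe set that the platform annotation gives to that gene symbol alone. Where there were several, the one with the highest mean signal over the arrays was used. All 10 were among the 22180 genes with such a probe set and among the 15526 that passed a filter on low signal. The study used cells of old mice (6 to 9 months) and young mice (8 to 11 weeks), and each sample pooled the cells of 5 animals. At each age there were activated cells given C-82 at 10 µM in dimethyl sulfoxide (here PRI-724, the drug whose active form is C-82), activated cells given vehicle, and quiescent cells. Activation meant culture on plastic for over 20 days, and quiescent cells were collected 12 h after plating, so time in culture and the quiescent state cannot be told apart. C-82 blocks the contact between beta-catenin and its coactivator CBP, and the labels do not say how long the cells were exposed to it. The labels give no strain, sex or engineered allele, and each group had 1 array.

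Stellate cells in a healthy liver store retinyl esters and triglyceride in lipid droplets and lose them as they become myofibroblasts. Fatty acids reach such droplets in steps. Lipoprotein lipase, the product of Lpl, frees them from lipoproteins outside the cell, Cd36 takes them up and the binding proteins Fabp4 and Fabp5 carry them in the cytosol. Scd1 desaturates them, Dgat1 and Dgat2 join the last acyl chain of triglyceride, Plin2 coats the droplet and Pnpla2 (adipose triglyceride lipase) releases the fatty acids again. Pparg encodes PPAR gamma, a nuclear receptor that binds DNA with RXR and drives many of these genes in fat cells and macrophages. Several of the 10 are not particular to stellate cells: Cd36, Fabp4 and Fabp5 are known from capillary endothelium and macrophages, Lpl and Pparg from macrophages, and Scd1 from hepatocytes.

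Promoter windows in the RefSeq table (GRCm38.p6, 250 bases before to 50 after a transcription start) matched 4 of the 10 genes, namely Plin2, Cd36, Pparg with 3 alternative starts, and Pnpla2. The windows of Cd36 and Pparg are shown because both genes fell with PRI-724, and that of Plin2 because its signal was nearly level on all arrays. Capitals mark matches to AGGTCA, the core letters of many nuclear receptor sites, and to CCAAT, the letters of the CCAAT box, on either strand (TGACCT and ATTGG are the same letters read on the other strand).
Cd36, chr5:17835847-17836146, minus strand: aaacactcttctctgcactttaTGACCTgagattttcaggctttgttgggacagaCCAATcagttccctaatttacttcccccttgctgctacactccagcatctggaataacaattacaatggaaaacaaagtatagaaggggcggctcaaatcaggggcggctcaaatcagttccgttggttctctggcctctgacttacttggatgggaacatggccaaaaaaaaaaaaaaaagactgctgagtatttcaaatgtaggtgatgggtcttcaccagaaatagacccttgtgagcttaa
Pparg window 1, chr6:115360894-115361193, plus strand: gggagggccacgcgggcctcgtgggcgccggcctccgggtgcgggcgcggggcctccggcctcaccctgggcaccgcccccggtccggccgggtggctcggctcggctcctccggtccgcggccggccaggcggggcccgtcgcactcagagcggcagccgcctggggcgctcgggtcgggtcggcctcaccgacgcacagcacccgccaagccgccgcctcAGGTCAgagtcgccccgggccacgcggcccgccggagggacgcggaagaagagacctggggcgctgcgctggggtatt
Pparg window 2, chr6:115362099-115362398, plus strand: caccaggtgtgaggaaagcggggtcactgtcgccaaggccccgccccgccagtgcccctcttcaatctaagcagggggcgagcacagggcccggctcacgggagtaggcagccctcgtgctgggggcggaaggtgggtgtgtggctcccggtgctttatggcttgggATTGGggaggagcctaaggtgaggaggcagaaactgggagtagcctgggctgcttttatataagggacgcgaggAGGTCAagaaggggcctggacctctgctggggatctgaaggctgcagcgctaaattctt
Pparg window 3, chr6:115421816-115422115, plus strand: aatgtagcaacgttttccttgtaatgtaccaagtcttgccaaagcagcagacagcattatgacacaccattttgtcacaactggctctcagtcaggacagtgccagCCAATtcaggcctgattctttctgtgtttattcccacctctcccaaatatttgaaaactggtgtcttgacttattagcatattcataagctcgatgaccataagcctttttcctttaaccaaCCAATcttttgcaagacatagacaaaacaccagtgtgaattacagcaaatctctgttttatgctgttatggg
Plin2, chr4:86670010-86670309, minus strand: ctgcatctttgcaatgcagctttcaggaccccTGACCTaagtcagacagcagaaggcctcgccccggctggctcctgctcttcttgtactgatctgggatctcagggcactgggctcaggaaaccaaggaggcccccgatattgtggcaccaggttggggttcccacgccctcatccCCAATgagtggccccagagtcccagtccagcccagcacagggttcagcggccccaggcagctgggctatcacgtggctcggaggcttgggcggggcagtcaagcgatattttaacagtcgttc
AGGTCA lay in the windows of Cd36 and Plin2 and in windows 1 and 2 of Pparg, as in 16.3% of the 32851 windows of the table. CCAAT lay in the windows of Cd36 and Plin2 and in windows 2 and 3 of Pparg, as in 37.4% of all windows. The letters AGGTCANAGGTCA, a full direct repeat of the kind PPAR and RXR bind, stood in 0.0396% of all windows, and CTTTGAT, the core that TCF/LEF partners of beta-catenin read, in 3.73%. None of the 6 windows of these genes held either of them, and the Pnpla2 window held none of the 4 motifs searched. The windows shown for Cd36, which fell, and for Plin2, which was not called, thus carried the same motifs. The Cd36 gene runs over chr5:17781690-17888959, so its window lies inside the gene. No window covered the outer end of Cd36, and its letters there were not searched. Such a match describes letters in a window and does not show a binding site.

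Signals are log2 values, so 1 unit is a doubling. With 1 array in each group, a state difference was tested over the old and the young pair (n = 2 pairs, limma with age and state in the model, 2 residual degrees of freedom). The labels do not say whether the samples came from separate cultures or preparations, so p-values measure only the spread between these arrays, and their number limits the precision. The young PRI-724 array stood apart, with an interquartile range of 1.71 against 2.11 to 2.43 on the other 5. In the old pair the median PRI-724 minus vehicle difference was 0.00 both for the brightest and for the dimmest 25% of genes, and in the young pair it was -0.42 for the brightest and 0.37 for the dimmest. All 12 stellate markers, Lrat, Des and Reln among them, exceeded the low-signal limit of 4.70 on every array, with a mean of 7.14 to 8.11. Markers of other liver cells were present as well: on vehicle arrays the 18 endothelial markers averaged 9.16 (old) and 9.32 (young) and the 16 macrophage markers 8.45 and 8.74. These are mixed samples in bulk, where fewer cells of a type and less RNA per cell cannot be told apart.

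**Figure D1:**
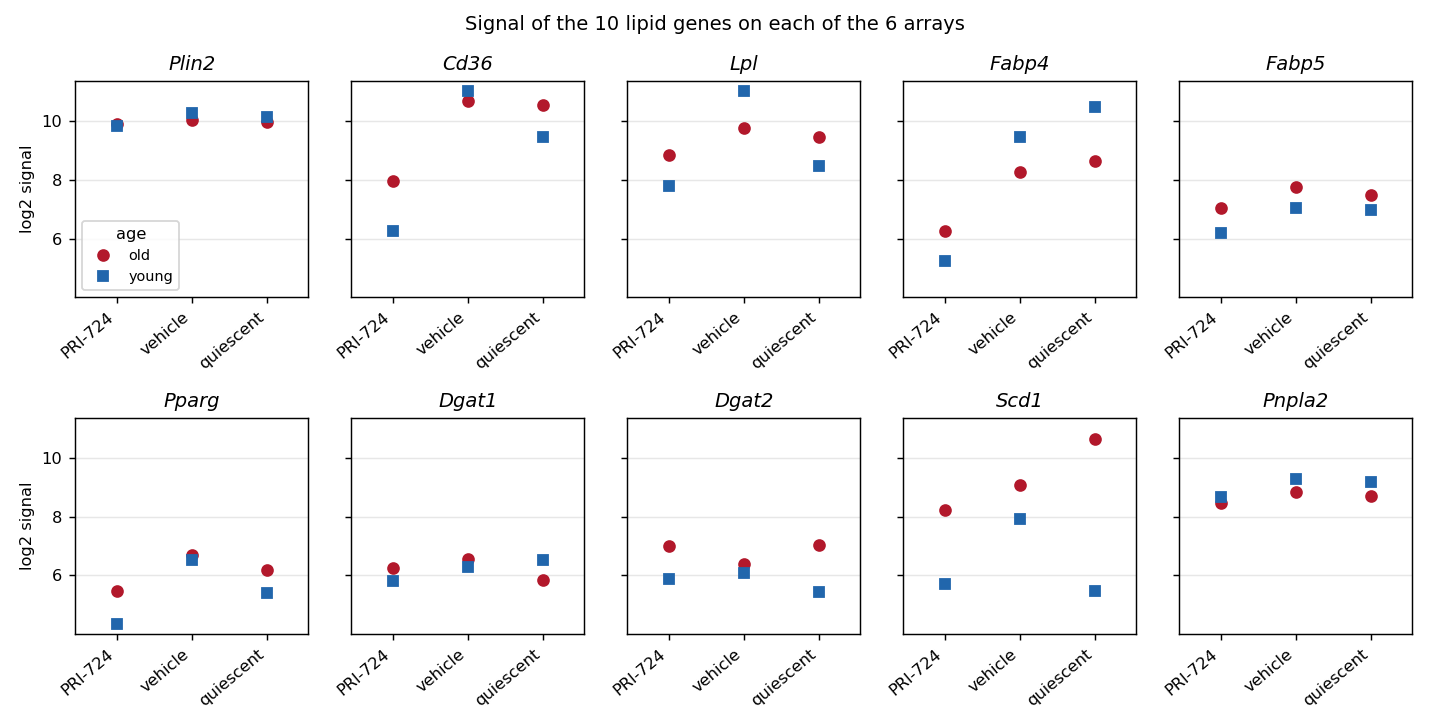
Log2 signal (vertical axis, same range in every panel) of the 10 genes by state on the 6 arrays, with circles for old and squares for young cells and 1 point for each array. Cd36 and Fabp4 have their lowest signals on the 2 PRI-724 arrays, Pparg has its PRI-724 points below its vehicle points but overlapping the quiescent ones, Plin2 stays between 9.83 and 10.28, and Scd1 is highest on the old quiescent array at 10.64.

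PRI-724 was compared with vehicle to ask how the inhibitor changed activated cells. Of the 10 genes 3 fell and 0 rose, where 1.93% of all tested genes fell and 0.271% rose (2.2% together, at an adjusted p of 0.05). The 3 were the uptake receptor Cd36, the binding protein Fabp4 and the nuclear receptor Pparg. On 8 of the 10, all but Dgat2 and Scd1, both PRI-724 arrays lay below both vehicle arrays, against 26.3% of all tested genes, for Fabp5 by a margin that 2 decimals do not show. The median difference of the 10 was -1.17, beside -0.05 for all tested genes. In the old pair it was -0.79 and in the young pair -1.52, and this difference between ages was not tested. The 26.3% and the -0.05 of all tested genes are not matched for signal level. By mean signal the 10 ranged from percentile 54.9 (Pparg) to 98.5 (Plin2) of the genes on the array. In the young pair the brightest genes had a median of -0.42 and the dimmest 0.37, with no such shift in the old pair. The part of signal level in the 8 of 10 was not tested.

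Cd36, a scavenger receptor that takes up long-chain fatty acids and oxidised lipoproteins, had log2 signals of 7.97 (old) and 6.26 (young) with PRI-724, against 10.69 and 11.02 with vehicle and 10.53 and 9.45 in quiescent cells. Both PRI-724 arrays lay below all 4 others. The PRI-724 minus vehicle difference was -3.74 ± 0.41 log2 units (SE, n = 2 pairs), a 13.4-fold fall with an adjusted p of 0.00248. It was -2.72 in the old and -4.76 in the young pair, and Cd36 had rank 11 among 15526 genes by the size of this difference.

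Lpl was 8.84 (old) and 7.79 (young) with PRI-724, against 9.75 and 11.02 with vehicle and 9.44 and 8.48 in quiescent cells. The PRI-724 arrays lay below the vehicle arrays but overlapped the quiescent ones. At -2.07 ± 0.48 (-0.91 in the old and -3.22 in the young pair) the difference from vehicle missed the threshold, with an adjusted p of 0.0648. The second Lpl probe set, chosen for this comparison after its values were seen, gave -2.43 ± 0.46 with an adjusted p of 0.0290.

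Of the binding proteins, Fabp4 fell and Fabp5 was not called. Fabp4, the adipocyte and macrophage form, was 6.28 (old) and 5.25 (young) with PRI-724, against 8.26 and 9.46 with vehicle and 8.63 and 10.47 in quiescent cells. It fell by 3.10 ± 0.55, or 8.57-fold, with an adjusted p of 0.0218, and the pairs were -1.98 (old) and -4.21 (young). Fabp5, the epidermal form, was 7.04 (old) and 6.18 (young) with PRI-724, against 7.76 and 7.04 with vehicle and 7.49 and 6.99 in quiescent cells. At -0.79 ± 0.27 it did not pass (adjusted p = 0.203), and its 3 further probe sets gave -0.98, -1.33 and -1.35 with adjusted p of 0.117, 0.0602 and 0.0616. Whether the 2 genes differ in their response was not tested.

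Pparg, the regulator, was 5.49 (old) and 4.35 (young) with PRI-724, against 6.69 and 6.54 with vehicle and 6.20 and 5.40 in quiescent cells. The young PRI-724 value lies under the limit that mean signals had to pass, so it is near the dim end of the array. Pparg fell by 1.69 ± 0.29, or 3.23-fold, with an adjusted p of 0.0192 (pairs -1.20 old and -2.18 young). Among 16 other adipogenic regulators and PPAR partners 0 fell and 1 rose. That gene was Klf15, a Krüppel-like factor of metabolic genes, at 6.67 and 6.42 with PRI-724 against 5.52 and 5.20 with vehicle (1.18 ± 0.25, adjusted p = 0.0449).

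The enzymes of desaturation and triglyceride synthesis did not pass the threshold. Scd1 was 8.21 (old) and 5.70 (young) with PRI-724, against 9.07 and 7.93 with vehicle and 10.64 and 5.49 in quiescent cells. The old array was above the young one in every state, and the PRI-724 minus vehicle difference was -1.55 ± 0.71 (adjusted p = 0.333). Dgat1 was 6.26 and 5.82 with PRI-724, against 6.57 and 6.30 with vehicle and 5.84 and 6.54 in quiescent cells, a difference from vehicle of -0.39 with a 95% interval of -1.10 to 0.32. Dgat2 was 6.99 and 5.88 with PRI-724, against 6.39 and 6.08 with vehicle and 7.04 and 5.42 in quiescent cells, a difference of 0.20 with an interval of -0.54 to 0.94. The old and the young pair of Dgat2 went opposite ways.

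Neither the droplet coat nor the intracellular lipase was called against vehicle. Plin2 was 9.90 (old) and 9.83 (young) with PRI-724, against 10.02 and 10.28 with vehicle and 9.96 and 10.11 in quiescent cells, a range of 0.45 over all 6 arrays. Its difference from vehicle was -0.28 ± 0.22 (adjusted p = 0.570, 95% interval -0.77 to 0.21), so a fall of the size seen for Cd36 or Fabp4 lies outside the interval. Pnpla2 was 8.48 and 8.65 with PRI-724, against 8.85 and 9.27 with vehicle and 8.70 and 9.18 in quiescent cells. At -0.50 ± 0.26 it was not called (adjusted p = 0.394, 95% interval -1.07 to 0.08), and a 2-fold fall lies inside the interval.

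**Figure D2:**
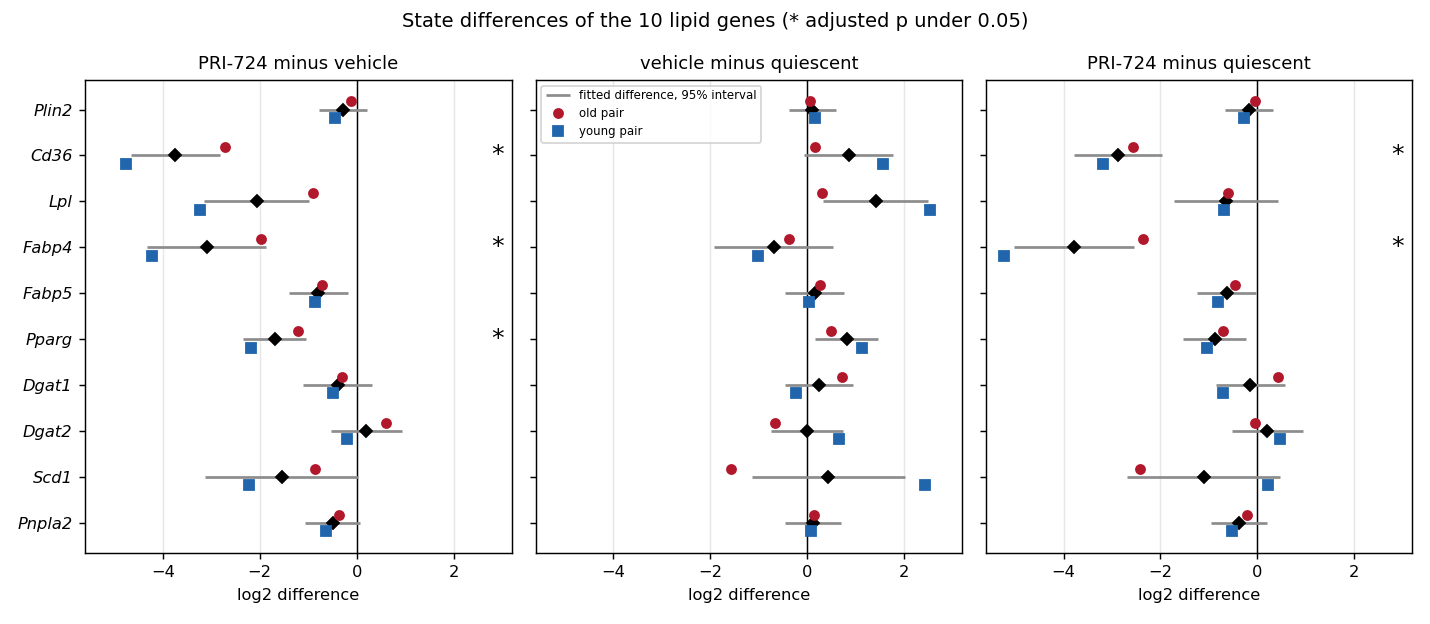
Log2 differences of the 10 genes in the 3 state comparisons (horizontal axis), as the old pair (circle), the young pair (square) and the fitted difference with its 95% interval (diamond and line), with an asterisk where the adjusted p was under 0.05. Cd36, Fabp4 and Pparg carry asterisks for PRI-724 minus vehicle, 0 genes do for vehicle minus quiescent, and Cd36 and Fabp4 do for PRI-724 minus quiescent.

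Markers of endothelium and macrophages moved with these genes. All 18 endothelial markers fell with PRI-724, and their mean was 6.96 (old) and 6.09 (young) with PRI-724 against 9.16 and 9.32 with vehicle. Of 16 macrophage markers 12 fell, with means of 6.06 and 5.79 against 8.45 and 8.74. The largest macrophage differences were those of the secreted protein Cd5l at -5.14 ± 0.51, the complement receptor Vsig4 at -5.08 ± 0.33, the oxidase subunit Cybb at -3.88 ± 0.29 and the scavenger receptor Msr1 at -3.44 ± 0.34. Those of the endothelial list were Oit3 at -4.76 ± 0.35, the lectin Clec1b at -3.85 ± 0.35, the Fc receptor Fcgr2b at -3.80 ± 0.43 and Stab1 at -3.56 ± 0.42. The brightest markers were still well above the low-signal limit with PRI-724: the cadherin Cdh5 at 10.30 and 8.30 (11.87 and 11.76 with vehicle), Ehd3 at 9.58 and 8.24 (10.75 and 10.43), the lysosomal protein Cd68 at 9.80 and 9.00 (11.30 and 11.19) and lysozyme Lyz2 at 9.08 and 8.13 (11.21 and 10.77). Under that limit were 1 macrophage marker on the old and 2 on the young PRI-724 array, and 1 endothelial marker on the young one, with 0 of either list on the other 4 arrays. Over the 12 stellate markers 2 fell, Tcf21 at -1.84 ± 0.33 and Lrat at -1.69 ± 0.31, with means of 7.69 and 7.14 against 8.11 and 7.99. The part of these cell types in the fall of Cd36, Fabp4 and Pparg was not tested.

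**Figure D3:**
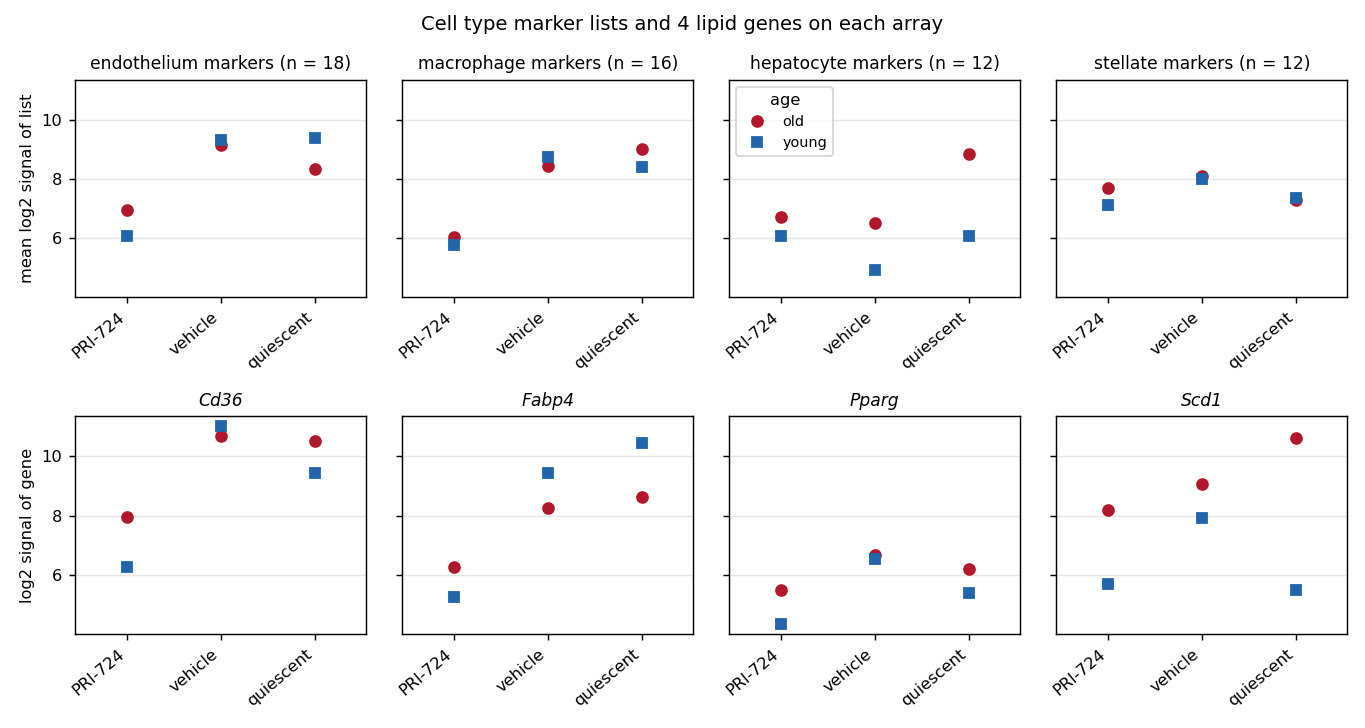
Mean log2 signal of 4 marker lists (top row) and log2 signal of Cd36, Fabp4, Pparg and Scd1 (bottom row) by state, with circles for old and squares for young cells. Endothelial and macrophage means are lowest on the 2 PRI-724 arrays (6.96 and 6.09, 6.06 and 5.79), and the hepatocyte mean is highest on the old quiescent array at 8.84.

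Other genes of the pathway passed in some lists, beside the 1.93% of all tested genes that fell and the 0.271% that rose. The lists were not tested against these shares. Of 16 genes of fatty acid uptake, binding and activation 3 fell and 0 rose: Fabp7, a binding protein known from brain, at -3.53 ± 0.32 (adjusted p = 0.00138), Gpihbp1, which anchors lipoprotein lipase to capillary endothelium, at -2.03 ± 0.26 (adjusted p = 0.00415), and Angptl4, a secreted inhibitor of that lipase, at -1.95 ± 0.32 (adjusted p = 0.0160). Fabp7 stood at 6.33 (old) and 4.99 (young) with PRI-724, against 9.33 and 9.04 with vehicle. Of 13 lipolysis genes 1 fell, the lysosomal lipase Lipa at -2.04 ± 0.23 (adjusted p = 0.00286). No gene passed among 14 other droplet proteins (Tmem159 was furthest at -0.64), 14 genes of glycerolipid and steryl ester synthesis (Lpin3, -0.88), 18 of fatty acid synthesis, elongation and desaturation (Fads2, -2.06, adjusted p = 0.102) and 21 of fatty acid oxidation (Pdk4, -1.35, adjusted p = 0.0851). The medians of these lists lay between -0.39 for oxidation and 0.03 for droplet proteins. The 4 tested adipocyte markers had a median of 0.41. None of them was called, nor any of 12 hepatocyte, 8 mesothelial and 5 lymphocyte markers.

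**Figure D4:**
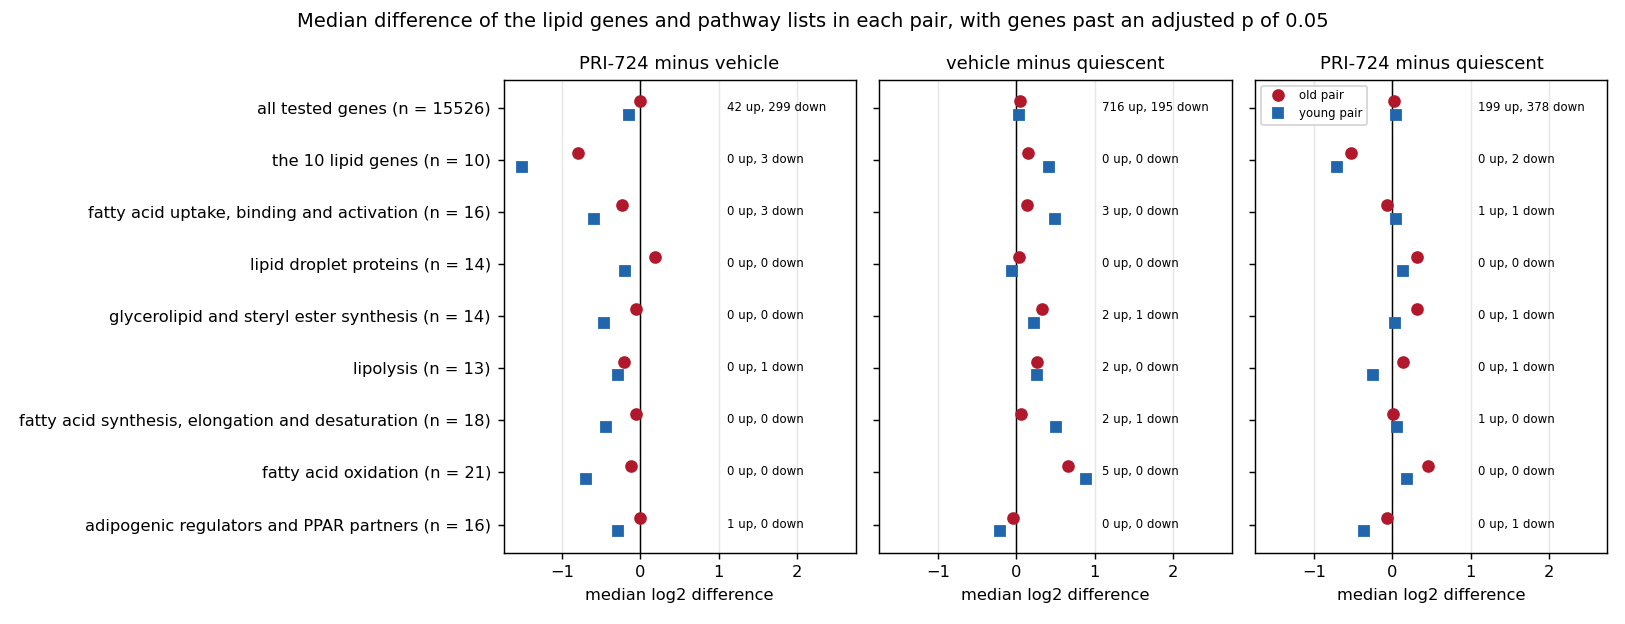
Median log2 difference (horizontal axis) of all tested genes, the 10 lipid genes and the 7 pathway lists, without the marker lists, in the old pair (circle) and the young pair (square) for the 3 state comparisons, with the number of genes past an adjusted p of 0.05 in each direction at the right of each panel. The 10 lipid genes have the lowest medians among these lists for PRI-724 minus vehicle (-0.79 old, -1.52 young), and fatty acid oxidation the highest among them for vehicle minus quiescent (0.66 old, 0.89 young).

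These calls depended on the young PRI-724 array. Without it 0 of the 15526 genes were called by limma (997 had an unadjusted p under 0.05), and Cd36 stood at -3.07 (adjusted p = 0.302), Fabp4 at -1.82 (0.319) and Pparg at -1.36 (0.480). Pparg also lost its call when the old PRI-724 array was left out (-2.02, adjusted p = 0.0583), and likewise for the young vehicle array (-1.29, 0.146). Fabp4 lost its call after cyclic loess (-2.87, 0.0991) and quantile normalization (-3.06, 0.139), as did Pparg (-1.69, 0.0835, and -1.55, 0.130), with falls close to those of the main analysis for both genes. Without the old vehicle array or 1 of the quiescent arrays, Lpl (-3.20, -2.07 and -2.07) and Scd1 (-2.89, -1.55 and -1.55) were called as well. Leaving out a quiescent array did not change these differences from the main analysis. The SEs of both genes fell, and the weight that limma gives to the spread shared by all genes (prior degrees of freedom) changed. That weight was 7.76 in the main analysis, unbounded without a quiescent array and 51.1 without the old vehicle array. The part of each in these calls was not tested.

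**Figure D5:**
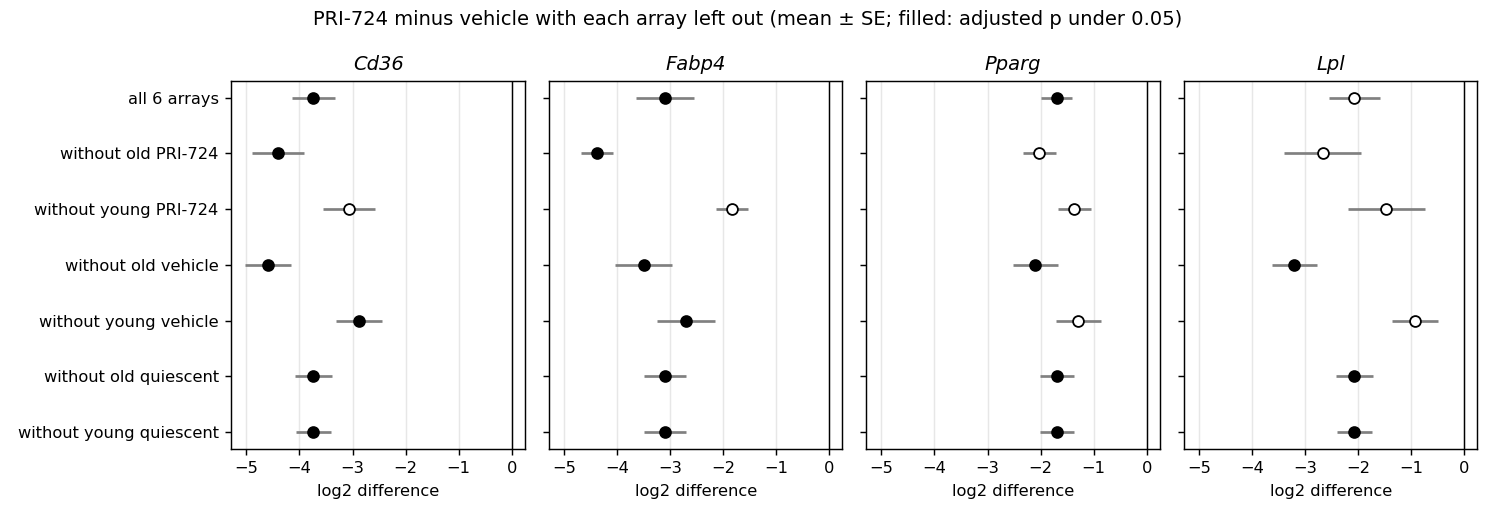
PRI-724 minus vehicle difference (horizontal axis, log2, with its SE) of Cd36, Fabp4, Pparg and Lpl over all 6 arrays and with each array left out, with filled points where the adjusted p was under 0.05. Every point lies below 0, and without the young PRI-724 array all 4 are open, at -3.07, -1.82, -1.36 and -1.47.

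Vehicle was compared with quiescent cells to ask what culture activation did. None of the 10 genes passed the threshold, where 5.87% of all tested genes did (4.61% higher and 1.26% lower), and 2 of the 10 (Lpl and Pparg) had an unadjusted p under 0.05, against 22.4%. For Cd36, Lpl and Pparg both vehicle arrays were above both quiescent arrays, as for 33% of all tested genes, and the reverse held for 0 of the 10, against 24.9%. Lpl stood at 1.42 ± 0.48 (adjusted p = 0.119), with 0.30 in the old and 2.53 in the young pair. Pparg stood at 0.81 ± 0.29 (adjusted p = 0.133), with 0.49 in the old and 1.14 in the young pair. Cd36 stood at 0.86 ± 0.41 (adjusted p = 0.250), with 0.16 in the old and 1.56 in the young pair, so the young pair was the larger for all 3. Plin2, the droplet coat, stood at 0.11 with a 95% interval of -0.38 to 0.60, and Pnpla2 at 0.12 with an interval of -0.46 to 0.69. Fabp4 was the lowest at -0.69 ± 0.55. Fabp5 stood at 0.16, Dgat1 at 0.25, Scd1 at 0.44 and Dgat2 at 0.00, and the pairs of the last 3 had opposite signs. Lpl was called with its second probe set (1.85, adjusted p = 0.0469). Leaving out the old vehicle array called Cd36, Lpl and Scd1 at 1.72, 2.56 and 1.78, and leaving out the old quiescent array called Lpl and Scd1 at 1.96 and 2.10. The prior degrees of freedom were 51.1 and unbounded in these fits, against 7.76 in the main analysis.

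Some other genes of the pathway rose with activation, beside the 4.61% of all tested genes that rose. No list was tested against that share. Of 21 genes of fatty acid oxidation 5 rose and 0 fell, with a list median of 0.84 beside 0.04 for all tested genes. The leading ones were Hadh, a dehydrogenase of the mitochondrial beta-oxidation spiral, at 2.08 ± 0.38, the carnitine acyltransferase family member Cpt1c at 1.99 ± 0.31 and the thiolase Acaa2 at 1.70 ± 0.39. Hadh had signals of 8.99 and 8.91 with vehicle, against 7.52 and 6.23 in quiescent cells. Of 16 uptake genes 3 rose, with Angptl4 at 3.04 ± 0.32, Gpihbp1 at 1.88 ± 0.26 and the acyl-CoA binding protein Dbi at 1.32 ± 0.32. Angptl4 stood at 9.75 and 9.80 with vehicle against 6.73 and 6.73 in quiescent cells, and the same gene fell with PRI-724. Of 14 glycerolipid genes 2 rose, the acyltransferases Gpam at 1.46 ± 0.34 and Lclat1 at 1.31 ± 0.27, and the phosphatidate phosphatase Lpin2 fell, at -1.38 ± 0.35.

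Of 13 lipolysis genes 2 rose, the monoacylglycerol lipase Mgll at 1.60 ± 0.29 and the lipase Ddhd2 at 1.41 ± 0.32. Of 18 genes of synthesis, elongation and desaturation 2 rose, the desaturase family members Fads2 at 2.81 ± 0.56 and Fads3 at 1.88 ± 0.35, and the elongase Elovl2 fell, at -1.17 ± 0.29. Droplet proteins (0 of 14) and adipogenic regulators (0 of 16) had no call, with the seipin gene Bscl2 at 1.12 ± 0.32 (adjusted p = 0.0689) and Klf15 at -0.83 ± 0.25 furthest in each list. Endothelial and macrophage markers had medians of 0.06 and -0.06 here, with 3 of 18 (Oit3 at 3.47 in the old and 2.54 in the young pair, Emcn at a fitted 2.73 and Kdr at 1.40) and 1 of 16 (Vsig4 at 1.58) higher, and 3 of 12 hepatocyte markers fell (Serpina1c at -3.20, Ahsg at -2.57, Alb at -2.09). Of the 12 stellate markers 6 rose and 2 fell, Des being the highest at 2.39 ± 0.38. Mesothelial markers rose in 3 of 8 genes, and 0 of 5 lymphocyte markers were called.

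PRI-724 was also set against quiescent cells, a comparison that shares its arrays with the other 2. Cd36 fell by 2.88 ± 0.41 (7.35-fold, adjusted p = 0.00470, pairs -2.56 old and -3.20 young) and Fabp4 by 3.79 ± 0.55 (13.8-fold, adjusted p = 0.00516, pairs -2.35 and -5.22). These were 2 of the 10 genes, where 3.72% of all tested genes were called and 2.43% fell. Plin2 and Pnpla2 also had both PRI-724 arrays below both quiescent arrays, which makes 4 of the 10 against 18% of all tested genes. That share is not matched for signal level either. Pparg stood at -0.88 ± 0.29 (adjusted p = 0.147), Lpl at -0.65 ± 0.48, Fabp5 at -0.63 ± 0.27, Pnpla2 at -0.38 ± 0.26 and Plin2 at -0.17 ± 0.22. Scd1 stood at -1.11, Dgat1 at -0.15 and Dgat2 at 0.20, with pairs of opposite signs. Without the young PRI-724 array neither gene was called (Cd36 -2.21, adjusted p = 0.174, and Fabp4 -2.51, 0.107), and Cd36 also lost its call without the old one (-3.55, 0.0738). Scd1 was called without the young quiescent array (-2.77), where the prior degrees of freedom were unbounded.

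In the pathway lists of this comparison, Fabp7 (-3.06 ± 0.32), Lipa (-1.88 ± 0.23), Lpin2 (-1.70 ± 0.35) and Cebpa, an adipogenic transcription factor (-1.23 ± 0.29), fell, and the caveolar coat gene Cav1 (1.33 ± 0.28) and Fads3 (1.83 ± 0.35) rose. No droplet protein or oxidation gene passed, with Hilpda, an inhibitor of adipose triglyceride lipase, at -1.18 and Cpt1c at 1.31 furthest. Of the endothelial markers 13 of 18 and of the macrophage markers 14 of 16 fell here as well.

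The ages were compared over the 3 states. None of the 10 genes passed the threshold, as 0.515% of all tested genes did, and 5 of the 10 had an unadjusted p under 0.05, against 10.4%. Scd1, the stearoyl-CoA desaturase, came nearest at 2.93 ± 0.58 log2 units (SE, n = 3 states, adjusted p = 0.0691), which is 7.64-fold higher in old cells, and had rank 10 by size. It was higher in old cells in every state, by 2.50 with PRI-724, 1.14 with vehicle and 5.15 in quiescent cells, and was the 1 gene of the 10 at least 2-fold higher in all 3 states, against 0.264% of all tested genes. Scd1 passed the threshold with 1 of the 4 quiescent and vehicle arrays left out (1.82 without a quiescent and 3.83 without a vehicle array), but not with a PRI-724 array left out or in any of the other alternatives. Dgat2, an acyltransferase of triglyceride synthesis, stood at 1.01 ± 0.27 (adjusted p = 0.188), with 1.11 with PRI-724, 0.30 with vehicle and 1.62 in quiescent cells. Fabp5 and Pparg were 0.69 each and Cd36 was 0.82, where the vehicle arrays of Cd36 went the other way at -0.33. Differences below 0 were those of Fabp4 at -0.67 ± 0.45, Pnpla2 at -0.36 ± 0.21 and Plin2 at -0.12 ± 0.18, and Pnpla2 was below 0 in every state (-0.18 with PRI-724, -0.43 with vehicle and -0.49 in quiescent cells). Fabp4 was higher in old cells with PRI-724 (1.03) and lower with vehicle (-1.20) and in quiescent cells (-1.84). Lpl stood at 0.25 and Dgat1 at 0.00, with states of both signs. Without a vehicle array Cd36 (1.39) and Dgat2 (1.37) passed as well. Fits without a quiescent or a vehicle array had prior degrees of freedom of 51.1 or more, against 7.76 in the main analysis.

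Hepatocyte markers differed by age too. Of 12 markers 4 were higher in old cells, Serpina1c at 3.07 ± 0.31, Ahsg at 2.56 ± 0.39, Fgb at 2.53 ± 0.37 and Alb at 2.31 ± 0.31, and 0 were lower. The mean of the list was 6.71 on the old and 6.09 on the young PRI-724 array, 6.53 and 4.93 with vehicle, and 8.84 and 6.08 in quiescent cells, so the old quiescent array was the highest for these markers and for Scd1. Albumin alone stood at 11.95 on that array against 9.32 on the young quiescent one. The part of hepatocyte RNA in the Scd1 and Dgat2 values was not tested. No gene of the 7 pathway lists was called by age. The furthest were the carboxylesterase Ces3a at 1.53, the elongase Elovl6 at 1.14, Hadh at 1.01, Fabp7 at 0.86, Cebpd at -0.86, Lpin2 at -0.78 and Tmem159 at 0.75.

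The genes with the most similar profile over the 6 arrays were found by Pearson's r, as a description, since the points share arrays and 6 points leave many high values. For Cd36 they were Id2, Apobec1 and B4galt6 (r over 0.99 each), and 97 genes or 0.681% of those compared exceeded 0.95, among them 4 of 16 macrophage and 0 of 18 endothelial markers. For Fabp4 they were Tet2, Ctnnal1 and Fam43a, and 180 genes (1.26%) exceeded 0.95, among them 7 of 18 endothelial and 0 of 16 macrophage markers. These counts do not assign either gene to 1 cell type, since both followed the means of both lists. Cd36 had r = 0.940 with the macrophage and 0.904 with the endothelial mean, and Fabp4 had 0.885 and 0.947. With the stellate mean Cd36 had 0.613 and Fabp4 0.262. Pparg was nearest to Cotl1, Fli1 and Nr1h4, with 1 endothelial and 0 macrophage markers over 0.95, and for the other 7 genes the count was 0 in both lists. Such a count does not show that a gene departed from a list. Pparg had r = 0.790 with the macrophage, 0.774 with the endothelial and 0.787 with the stellate mean. With the endothelial mean Plin2 had 0.838 and Pnpla2 0.795, whereas Dgat2 had -0.241. Plin2 was nearest to C2, Ttf1 and Rspo3, Lpl to Zfp512, Ppp1r21 and Tbp, Fabp5 to Polr1d, Vps18 and Trps1, and Scd1 to Tom1, Lrp12 and Zfp971. Dgat1 was nearest to Aamp, Sh3pxd2a and Fzr1, Dgat2 to Reep6, Ptgis and Rars, and Pnpla2 to Apold1, Igsf23 and Trim14.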

How the data were processed

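Total RNA of 6 pooled samples was isolated with an RNeasy kit, and biotin labelling used GeneChip WT PLUS reagents, per the labels' protocols. The deposited values are log2 signals, made with Affymetrix Expression Console and RMA per the submitters' processing notes, with versions not given in the sources used here. Such processing corrects background, aligns quantiles over probes and summarises each probe set, which can compress large differences of dim genes. No depth or detection call comes with these values.

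Of 41345 probe sets, 23521 carried 1 gene symbol in the platform's table and were used, and the 1814 with several and 16010 with none were not. The 30% of 22180 genes with the lowest mean (under 4.70) were left out. Tests used limma 3.58.1 under R 4.3.3 (age and state, intensity trend, prior degrees of freedom 7.76) and adjusted by Benjamini-Hochberg over 15526 genes, with a threshold of 0.05. The fit was also run on simulated data with the same spread on every array and no age effect. That run does not cover an array that stands apart, as the young PRI-724 array does. The 10 genes were chosen, and 7 pathway and 7 marker lists (macrophage, endothelium, hepatocyte, adipocyte, stellate, mesothelial, lymphocyte) written, with earlier results of these data known. All 10 genes are given in each comparison, with up to 3 called genes of a pathway list by size (or else the 1 furthest), 4 largest and 2 brightest markers of macrophages and endothelium for PRI-724 minus vehicle, and the 3 most similar genes by r. Alternatives were other filters, probe set rules, models and normalizations and each array left out, and other probe sets of Lpl and Fabp5 were added after seeing the data. Figures were drawn with matplotlib 3.10.9 in Python 3.11.15.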

Additional observations from a re-analysis of the deposited data

Results flagged for a closer look

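In 7 cases the old and the young pair of a gene went opposite ways, and the difference between pairs, given here as old minus young, was not tested, since each age has 1 array for a state. For vehicle minus quiescent, where 26.0% of all tested genes had opposite signs, Scd1 was -1.56 in the old and 2.44 in the young pair (a difference of -4.01), Dgat2 -0.66 and 0.66 (-1.32) and Dgat1 0.73 and -0.23 (0.96). For PRI-724 minus vehicle (39.2% of all tested genes), Dgat2 was 0.61 in the old and -0.21 in the young pair (0.81). For PRI-724 minus quiescent (44.3%), Scd1 was -2.43 and 0.22 (-2.65), Dgat1 0.42 and -0.71 (1.14) and Dgat2 -0.05 and 0.46 (-0.51). All 7 involve the enzymes of desaturation and triglyceride synthesis, and their shares, 3, 1 and 3 of 10 genes, stand beside these background shares. The old quiescent array, which enters the Scd1 values, also had the highest mean of hepatocyte markers at 8.84, and its part in them was not tested.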

How the results depend on the processing

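The directions of Cd36, Fabp4, Pparg and Lpl for PRI-724 minus vehicle were negative in every alternative run. Cd36 kept its call in 14 of 15 alternatives, Fabp4 in 11 and Pparg in 9, and Lpl gained one in 5 of 16. In 34 combinations of a gene, a comparison and an alternative the difference had the other sign, and none of these was called. Counts of genes called moved as follows. Without age in the model they were 114 for vehicle minus quiescent (911 in the main analysis), 91 for PRI-724 minus vehicle (341) and 217 for PRI-724 minus quiescent (577). Without state in the model 0 of the 80 age calls were left (581 genes had an unadjusted p under 0.05). With only the arrays of the states compared they were 481, 965 and 1064. After cyclic loess they were 482 for vehicle minus quiescent, 103 for PRI-724 minus vehicle and 7 for age, and after quantile normalization 331, 84 and 12. After median centring they were 213 for PRI-724 minus vehicle and 50 for age. Of the 10 lipid genes, PRI-724 minus vehicle called 1 without age, 5 with only the arrays compared, 1 after cyclic loess and 1 after quantile normalization, against 3. Higher and lower calls for vehicle minus quiescent were 716 and 195 in the main analysis and 428 and 326 after median centring, which put the median of all tested genes at -0.21 there and at 0.15 for PRI-724 minus vehicle. For age the split was 41 and 39, against 2 and 5 after cyclic loess, 4 and 8 after quantile normalization and 18 and 32 after median centring. With each array left out in turn, calls ranged from 318 to 1230 genes and 0 to 3 of the 10 for vehicle minus quiescent, 0 to 968 and 0 to 5 for PRI-724 minus vehicle, 0 to 1053 and 0 to 3 for PRI-724 minus quiescent, and 0 to 343 and 0 to 3 for age. The counts of 0 over all tested genes came without the young PRI-724 array, and for age also without the old one. In these fits the lone array of a state is assumed to vary like the others. The prior degrees of freedom changed from 7.76 to 51.1 or more without a quiescent or vehicle array, and to 3.5 without a PRI-724 array. With only the arrays of the states compared they were 3.52, unbounded and 54.5. Calls gained or lost in these fits can reflect this weight and need not reflect a different signal. The cause was not tested. The labels carry no replicate numbers. The main model pairs the arrays by age, and the counts without age above are those without this pairing.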
